A study of Mus musculus with 2 samples.

Results

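Maturing red cells carry a small set of enzymes that handle sugar breakdown, peroxide, heme products and carbon dioxide, and 9 of their genes were followed here in mouse chimeric embryos: *Bpgm*, *Pklr*, *Gpx1*, *Prdx2*, *Cat*, *Sod1*, *Blvrb*, *Car2* and *Nudt4*. They were taken by name from the 29453 genes of the spliced and unspliced count tables and were all present there. Droplet-based scRNA-Seq had been done on 6 pooled whole embryos, sorted into 2 fractions with 1 library each. The tdTom+ fraction descends from a single ESC clone with a fluorescent tdTomato marker and a *Gata1*- allele, made by a frameshift deletion of 38 bp in exon 4 and injected into E3.5 blastocysts of the C57BL/6 strain. The tdTom- fraction is the wildtype host of the same embryos, and carries neither change. The labels give E8.5 for the tdTom+ and E8.6 for the tdTom- sample, although both come from the same pool. *Gata1* encodes a transcription factor that red cell differentiation needs. With 1 library per fraction no test could be run and no p-value is given, the genotype and the library cannot be told apart, and every 95% interval covers counting error alone.

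A cell was called globin-expressing where 8 globin genes together made up 1% or more of its spliced UMIs, the molecules counted from spliced transcripts. This held for 1453 of 8716 host cells and 945 of 8565 tdTom+ cells, and the remaining 7263 host and 7620 tdTom+ cells are called other cells. Between 0.9% and 1.1% lay 10 globin-expressing and 10 other host cells, and 42 and 24 tdTom+ cells. The globin share had a median of 9.31% and a maximum of 27.4% in host globin-expressing cells, but a median of 2.39% and a maximum of 9.06% in the tdTom+ ones. When the cells were clustered without the 9 genes and the globin genes, 95% of the host globin-expressing cells lay in an erythroid-like cluster, which held 1388 host and 2 tdTom+ cells. Of the tdTom+ globin-expressing cells 88.8% lay in a blood progenitor-like cluster of 1143 tdTom+ cells and 1 host cell, so the fractions are compared across different clusters. The 6 blood progenitor markers summed to 263 CPM, that is UMIs per 1000000 spliced UMIs of the group, in host and 666 CPM in tdTom+ globin-expressing cells, and the 6 myeloid markers to 1.58 and 56.3 CPM, with *Ptprc* at 0 in the tdTom+ cells; the part of such cell mixtures in the results was not tested. *Gata1* itself was at 130 CPM (126 to 134) in host and 31.2 CPM (28.9 to 33.7) in tdTom+ globin-expressing cells. Median depth was 18827 and 21483 spliced UMIs in host and tdTom+ globin-expressing cells, and 15204 and 16898 in other cells.

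A red cell without mitochondria lives on glycolysis alone. *Bpgm* diverts an intermediate of that pathway into bisphosphoglycerate, which eases the release of oxygen from hemoglobin, and *Pklr* is the pyruvate kinase of red cells and liver that closes the pathway. Oxygen bound to heme iron gives off superoxide, which *Sod1* turns into hydrogen peroxide, and *Cat*, *Gpx1* and *Prdx2* each remove the peroxide, by direct splitting, with glutathione and with thioredoxin. *Blvrb* reduces flavins and a breakdown product of heme, *Car2* interconverts carbon dioxide and bicarbonate, and *Nudt4* is a Nudix hydrolase that acts on inositol pyrophosphates.

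Of the 9 members, 7 were at least 2-fold higher in host globin-expressing than in other host cells, beside 4.22% of the 12436 genes with 100 or more UMIs in this comparison. *Cat* and *Sod1* were the exceptions. In the tdTom+ fraction 4 members were at least 2-fold higher (*Pklr*, *Gpx1*, *Blvrb*, *Car2*), which is 3 of the 8 with 100 UMIs since *Pklr* had fewer, beside 4.45% of 12490 genes. In globin-expressing cells 5 members (*Bpgm*, *Pklr*, *Gpx1*, *Prdx2*, *Blvrb*) were at least 2-fold lower in tdTom+ than in host cells, beside 3.93% of 8786 genes, and 0 were at least 2-fold higher, beside 6.62%. Among cells of like globin share, fewer of these 5 passed. At 1% to 3% globin it was 1 of the 8 members with 100 UMIs, beside 5.75% of genes, a count that ranged from 0 to 2 under other limits and settings, and at 3% to 10% it was 3 of 8, beside 3.95%.

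The promoter windows of these last 5 genes are shown because they set the members that were lower in *Gata1*- cells side by side. The windows run from 250 bases before to 50 bases after an annotated start and come from RefSeq on GRCm38.p6, 5′ to 3′ on the strand of the gene. Capitals mark AGATAA or its reverse complement TTATCT, the letters GATA factors are known to bind, and CCNCNCCC or its reverse complement GGGNGNGG, the letters that erythroid CACCC-box factors are known to bind. *Pklr* has 2 annotated starts and therefore 2 windows, and the first of 2 windows is shown for *Blvrb*.
Pklr, upstream start, chr3:89135892-89136191, plus strand: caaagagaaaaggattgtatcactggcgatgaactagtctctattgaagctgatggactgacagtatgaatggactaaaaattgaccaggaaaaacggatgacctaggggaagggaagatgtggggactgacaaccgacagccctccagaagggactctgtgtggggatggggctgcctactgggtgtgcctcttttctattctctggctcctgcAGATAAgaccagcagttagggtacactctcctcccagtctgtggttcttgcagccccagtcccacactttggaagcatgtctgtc
Pklr, downstream start, chr3:89136373-89136672, plus strand: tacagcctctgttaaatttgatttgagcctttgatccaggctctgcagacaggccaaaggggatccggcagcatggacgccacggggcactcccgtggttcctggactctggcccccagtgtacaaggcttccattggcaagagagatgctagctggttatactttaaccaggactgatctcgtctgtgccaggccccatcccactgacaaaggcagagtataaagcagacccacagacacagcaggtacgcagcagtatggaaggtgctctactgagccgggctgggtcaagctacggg
Bpgm, chr6:34476106-34476405, plus strand: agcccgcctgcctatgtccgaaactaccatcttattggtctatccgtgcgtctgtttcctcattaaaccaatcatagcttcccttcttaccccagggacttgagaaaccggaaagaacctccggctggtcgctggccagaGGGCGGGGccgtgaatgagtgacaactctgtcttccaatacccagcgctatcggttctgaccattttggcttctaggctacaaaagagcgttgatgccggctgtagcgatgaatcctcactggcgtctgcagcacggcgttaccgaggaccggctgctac
Gpx1, chr9:108338830-108339129, plus strand: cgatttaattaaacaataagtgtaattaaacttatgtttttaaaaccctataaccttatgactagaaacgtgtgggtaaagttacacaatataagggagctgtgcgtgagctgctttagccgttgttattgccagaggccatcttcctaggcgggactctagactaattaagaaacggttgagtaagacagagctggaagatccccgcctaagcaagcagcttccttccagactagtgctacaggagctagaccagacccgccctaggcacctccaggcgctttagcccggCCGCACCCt
Prdx2, chr8:84969372-84969671, plus strand: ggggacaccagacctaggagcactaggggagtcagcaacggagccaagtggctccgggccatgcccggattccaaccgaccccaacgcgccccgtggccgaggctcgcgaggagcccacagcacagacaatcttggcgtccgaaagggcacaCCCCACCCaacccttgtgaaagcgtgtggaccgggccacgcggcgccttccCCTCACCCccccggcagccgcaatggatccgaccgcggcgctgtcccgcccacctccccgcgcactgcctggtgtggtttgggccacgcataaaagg
Blvrb, chr7:27447728-27448027, plus strand: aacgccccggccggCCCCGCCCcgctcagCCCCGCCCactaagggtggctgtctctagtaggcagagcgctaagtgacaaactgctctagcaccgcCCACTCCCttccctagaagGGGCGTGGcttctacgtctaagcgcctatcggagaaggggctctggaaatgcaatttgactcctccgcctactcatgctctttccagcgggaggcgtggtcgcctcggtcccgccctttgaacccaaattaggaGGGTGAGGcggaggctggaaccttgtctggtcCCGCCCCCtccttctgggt

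Windows were found for 8 of the 9 members, in all 10 windows, and no window was listed for *Car2*. AGATAA in either direction occurred in 1 of the 10 windows, that of the upstream *Pklr* start at position -35, beside 11.2% of all 32851 windows of the same length. CCNCNCCC in either direction occurred in 7 of the 10, beside 49.5% of all windows. The window of *Blvrb* shown held 6 matches, its other window 0, and that of *Prdx2* 2, at -98 and -47. *Bpgm* and *Gpx1* held 1 match each, and both *Pklr* windows 0. *Nudt4* held 10 matches, some of them overlapping, *Cat* 4 and *Sod1* 3. These last genes were not at least 2-fold lower in tdTom+ than in host globin-expressing cells. The number of matches thus did not set the lower members apart. These matches describe letters in the windows and say nothing on binding.

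*Bpgm* (chromosome 6, 34476207 to 34505613, GRCm38, plus strand) comes first among the glycolytic members. Its spliced level was 137 CPM (133 to 142) in host globin-expressing cells, 46.7 CPM (45.5 to 48) in other host cells, 25.4 CPM (23.3 to 27.7) in tdTom+ globin-expressing cells and 40.8 CPM (39.7 to 41.9) in other tdTom+ cells. The tdTom+ globin-expressing cells were the lowest of the 4 groups and the host globin-expressing cells the highest. The log2 fold over other cells was 1.55 (1.49 to 1.62) in the host and -0.68 (-0.81 to -0.55) in tdTom+ cells, so the direction differed between the fractions. Between globin-expressing cells, *Bpgm* was lower in tdTom+ than in host cells by a log2 fold of -2.43 (-2.57 to -2.30). The interval of *Pklr* overlaps this, and with cells thinned to 5000 UMIs *Bpgm* was at -2.54 and *Pklr* at -3.16. Since 4 of 938 thinned tdTom+ globin-expressing cells kept a *Pklr* UMI, the thinned values do not rank *Bpgm* and *Pklr*. For *Bpgm*, single host globin-expressing cells had a median of 106 CPM (quartiles 49 and 187), while the median in each other group was 0 CPM.

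*Pklr* (chromosome 3, 89136142 to 89146784, plus strand, overlapping *Hcn3* on the opposite strand) was the scarcest member, with 207 spliced UMIs in host globin-expressing, 28 in other host, 40 in tdTom+ globin-expressing and 16 in other tdTom+ cells. These are 7.45 CPM (6.47 to 8.54), 0.245 CPM (0.163 to 0.354), 1.93 CPM (1.38 to 2.63) and 0.12 CPM (0.0686 to 0.195). Both globin-expressing groups lay above both groups of other cells, by a log2 fold of 4.93 (4.35 to 5.55) in the host and of 4.01 (3.14 to 4.94) in tdTom+ cells. The tdTom+ over host fold was -1.95 (-2.47 to -1.45) in globin-expressing cells. At like globin it was -0.17 (-2.22 to 2.98) at 1% to 3% on 19 and 2 UMIs, and -0.88 (-1.66 to -0.17) at 3% to 10% on 21 and 76 UMIs, both under 2-fold. In finer ranges of the blood clusters it was 0.19 (-1.22 to 1.83) at 3% to 5% on 17 and 6 UMIs. At 5% to 10% it was -1.16 (-3.08 to 0.26) on 4 and 70 UMIs. With cells thinned to 5000 UMIs the fold over all globin-expressing cells was -3.16. Cells with fewer UMIs, 61 host and 7 tdTom+ globin-expressing ones, were left out of the thinned shares. Then 51 of 1392 host cells (3.66%, 2.74% to 4.79%) but 4 of 938 tdTom+ cells (0.426%, 0.116% to 1.09%) kept a *Pklr* UMI. In neural-like cells, taken as the background, 4 of 1543 host cells (0.259%, 0.0707% to 0.662%) did, and without thinning 12.5% of host and 3.81% of tdTom+ globin-expressing cells had a UMI. In neural-like tdTom+ cells 0.211% (0.0255% to 0.759%) kept a UMI after thinning and 0.31% had one without it, at 0.18 CPM (0.0372 to 0.527). The thinned tdTom+ share, on 4 cells, thus overlapped the background, while the level from all UMIs lay above it.

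**Figure D1:**
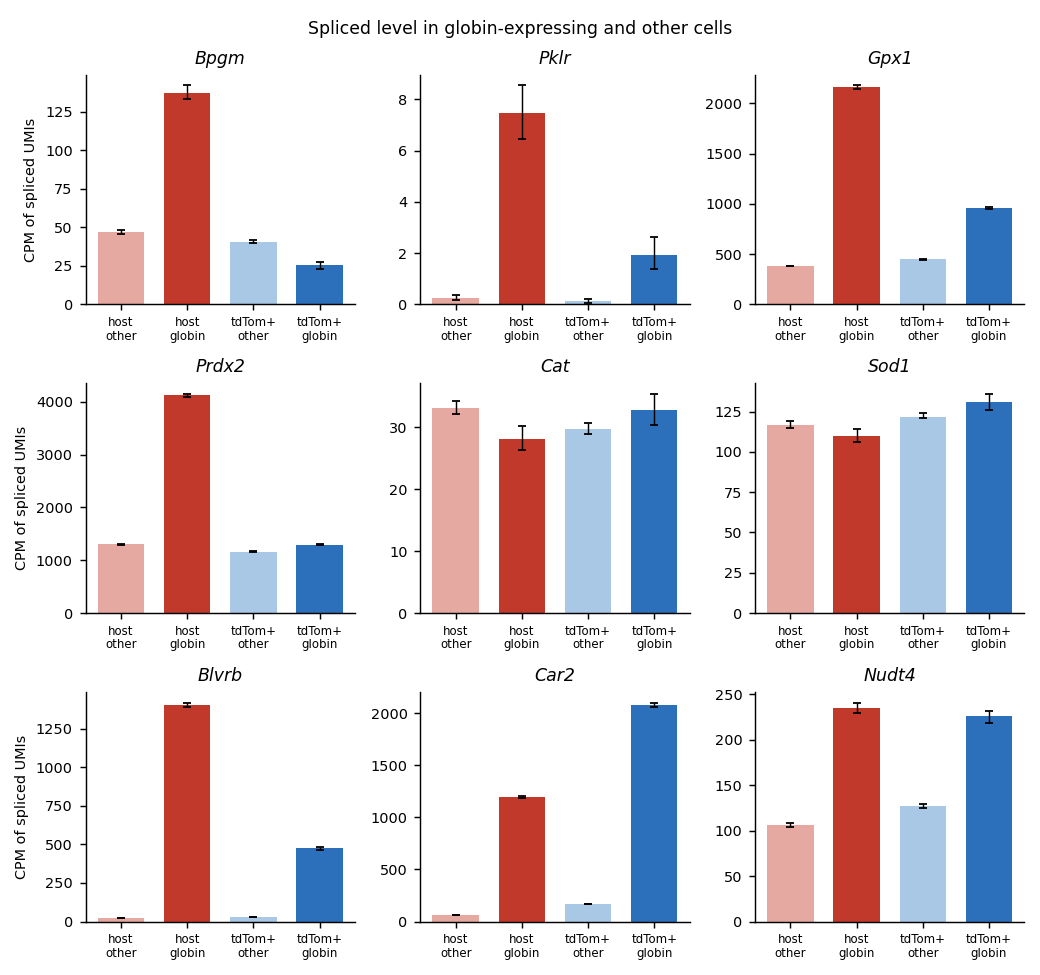
Spliced level of each gene, in CPM of spliced UMIs on linear axes from 0, in other and globin-expressing cells of the host and tdTom+ fractions, with exact Poisson 95% intervals. *Bpgm* stands at 137 CPM in host globin-expressing and 25.4 CPM in tdTom+ globin-expressing cells, while *Car2* stands at 1196 and 2082 CPM.

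Among the peroxide-removing enzymes, *Gpx1* (chromosome 9, 108338903 to 108340343, plus strand) was at 2162 CPM (2144 to 2179) in host globin-expressing, 383 CPM (379 to 386) in other host, 960 CPM (947 to 974) in tdTom+ globin-expressing and 449 CPM (446 to 453) in other tdTom+ cells. The globin-expressing cells of each fraction lay above its other cells, with a log2 fold of 2.50 (2.48 to 2.52) in the host and 1.10 (1.07 to 1.12) in tdTom+ cells. Between globin-expressing cells the log2 fold of tdTom+ over host was -1.17 (-1.19 to -1.15). The middle 50% of single cells did not overlap, from 1712 to 2615 CPM in host and from 653 to 1113 CPM in tdTom+ globin-expressing cells.

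*Prdx2* (chromosome 8, 84969587 to 84974834, plus strand, overlapping *Junb* and *Rnaseh2a* on the opposite strand) was at 4124 CPM (4100 to 4148) in host globin-expressing, 1304 CPM (1297 to 1310) in other host, 1295 CPM (1279 to 1310) in tdTom+ globin-expressing and 1161 CPM (1155 to 1166) in other tdTom+ cells. Only the host globin-expressing cells stood apart, with a log2 fold of 1.66 (1.65 to 1.67) over other host cells, against 0.16 (0.14 to 0.18) within the tdTom+ fraction. The log2 fold of tdTom+ over host globin-expressing cells was -1.67 (-1.69 to -1.65). *Prdx2* was common outside blood too, at 1463 CPM in host neural-like cells.

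*Cat* (chromosome 2, 103453849 to 103485160, minus strand) was at 28.2 CPM (26.3 to 30.3) in host globin-expressing, 33.2 CPM (32.2 to 34.3) in other host, 32.8 CPM (30.4 to 35.4) in tdTom+ globin-expressing and 29.8 CPM (28.9 to 30.7) in other tdTom+ cells. All 4 values lay close together, with log2 folds of -0.24 (-0.35 to -0.12) in the host and 0.14 (0.02 to 0.26) in tdTom+ cells. *Sod1* (chromosome 16, 90220754 to 90226329, plus strand, overlapping *Scaf4* on the opposite strand) was at 110 CPM (106 to 114), 117 CPM (115 to 119), 131 CPM (126 to 136) and 122 CPM (121 to 124) in the same order. Its log2 folds were -0.10 (-0.16 to -0.04) in the host and 0.10 (0.04 to 0.16) in tdTom+ cells. Neither gene was set apart by globin in either fraction on this scale. The median gene had a log2 fold of -0.70 in the host and -0.40 in tdTom+ cells, and relative to it *Cat* was at 0.46 and 0.54 and *Sod1* at 0.60 and 0.50, so that the host direction of both turns with the scaling. Without the globin genes in the total, the host log2 fold was -0.09 for *Cat* and 0.05 for *Sod1*.

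*Blvrb* (chromosome 7, 27447978 to 27466144, plus strand) had the largest fold of the 9 genes in the host on the scale used here, and in tdTom+ cells a fold within the interval of that of *Pklr*. With the level in neural-like cells subtracted as free RNA, the host log2 fold was 9.10 for *Blvrb* and 10.64 for *Pklr*. The *Pklr* value cannot be ranked. Other host cells had 0.245 CPM and neural-like host cells 0.241 CPM (0.0883 to 0.524) on 6 UMIs, so what was left was within counting error. The level of *Blvrb* was 1406 CPM (1392 to 1420) in host globin-expressing, 23.6 CPM (22.7 to 24.5) in other host, 477 CPM (467 to 486) in tdTom+ globin-expressing and 27.4 CPM (26.5 to 28.3) in other tdTom+ cells. Both globin-expressing groups lay far above the other cells, with log2 folds of 5.90 (5.84 to 5.95) in the host and 4.12 (4.07 to 4.18) in tdTom+ cells. Of all *Blvrb* UMIs in the host, 93.5% (93.3% to 93.8%) lay in globin-expressing cells, which held 19.6% of all spliced UMIs. Between globin-expressing cells, tdTom+ was lower by a log2 fold of -1.56 (-1.59 to -1.53). After thinning, a *Blvrb* UMI was kept by 99.4% of host and 85.5% of tdTom+ globin-expressing cells, and by 9.92% of host and 5.9% of tdTom+ neural-like cells; without thinning these shares were 98.1%, 98.7%, 26.4% and 17.7%.

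*Car2* (chromosome 3, 14886273 to 14900770, plus strand) was the only member with its highest level in tdTom+ globin-expressing cells by over 1.5 times. It was at 2082 CPM (2063 to 2102) there, at 1196 CPM (1183 to 1209) in host globin-expressing cells, at 168 CPM (166 to 170) in other tdTom+ and at 62.6 CPM (61.1 to 64) in other host cells. The tdTom+ values were above the host values in both kinds of cells, with log2 folds of 0.80 (0.78 to 0.82) and 1.43 (1.39 to 1.46), but the second did not hold outside the haemato-endothelial clusters, where other cells had 60.3 CPM (tdTom+) and 57 CPM (host), a log2 fold of 0.08 (0.03 to 0.13). The other tdTom+ cells held 1188 cells of the haemato-endothelial clusters, beside 455 among other host cells. Over those other cells that lay outside these clusters, a limit added after seeing the data, the log2 fold of tdTom+ globin-expressing cells went from 3.63 to 5.11 for *Car2* and from 4.12 to 5.14 for *Blvrb*.

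*Nudt4* (chromosome 10, 95547007 to 95564146, minus strand, overlapping *Mir3058* on the same strand) was at 235 CPM (230 to 241) in host globin-expressing, 106 CPM (104 to 108) in other host, 226 CPM (219 to 232) in tdTom+ globin-expressing and 127 CPM (125 to 129) in other tdTom+ cells. The log2 fold of tdTom+ over host was -0.06 (-0.11 to -0.01) over all globin-expressing cells, and turned to 0.60 (0.38 to 0.82) at 1% to 3% globin, with 216 and 143 CPM, and 0.23 (0.15 to 0.32) at 3% to 10%, with 244 and 208 CPM. Over other cells the log2 folds were 1.15 (1.10 to 1.19) in the host and 0.83 (0.78 to 0.87) in tdTom+ cells, just inside and just outside the 2-fold limit, and 1.23 in tdTom+ cells with folds centered on the median gene.

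**Figure D2:**
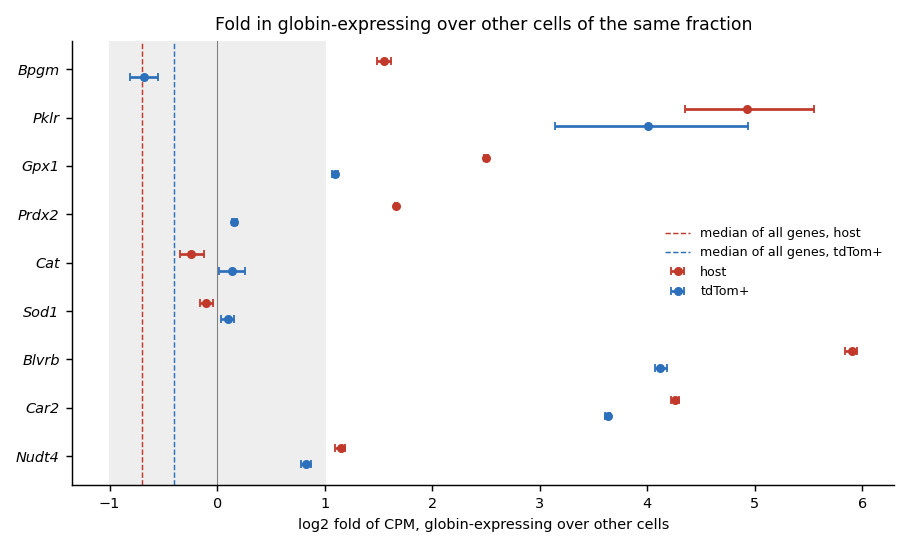
Log2 fold of CPM in globin-expressing over other cells of the same fraction for each gene (points, with exact conditional 95% intervals), host and tdTom+. The shaded band marks less than 2-fold and the dashed lines mark the median of all genes, -0.70 in the host and -0.40 in tdTom+ cells; *Bpgm* lies at 1.55 in the host and at -0.68 in tdTom+ cells.

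Because host globin-expressing cells held more globin than the tdTom+ ones, cells of like globin share were set side by side. From 1% to 3% there were 627 tdTom+ and 104 host cells, of which 620 and 57 lay in haemato-endothelial clusters. *Bpgm* was then at 28.4 CPM (25.7 to 31.4) in tdTom+ and 60.1 CPM (47.4 to 75.1) in host cells, a log2 fold of -1.08 (-1.43 to -0.71), and was the only member at least 2-fold lower, beside 5.75% of 7114 genes. The interval includes less than 2-fold, and 0 members passed with a globin limit of 0.5%, with unspliced UMIs added or with cells weighted equally. Equal weights count shallow cells as much as deep ones. Of all host globin-expressing cells, 23 lay in an extraembryonic ectoderm-like cluster with a median of 1018 spliced UMIs. *Prdx2* came close, with 1238 and 2396 CPM and a log2 fold of -0.95, and passed 2-fold once the cells were limited to haemato-endothelial clusters (1240 and 2605 CPM), when 2 members were lower beside 3.55% of 6984 genes and 1 was higher beside 4.85%. *Car2* was 1 member at least 2-fold higher, with 1919 CPM in tdTom+ and 668 CPM in host cells, beside 3.47% of genes. In haemato-endothelial clusters *Car2* was at 1928 and 815 CPM, a log2 fold of 1.24 (1.14 to 1.35). *Gpx1* was at 947 CPM (931 to 963) and 955 CPM (903 to 1010) in this range, a log2 fold of -0.01 (-0.10 to 0.07), and at 948 and 1035 CPM in haemato-endothelial clusters, a log2 fold of -0.13 (-0.22 to -0.03). *Blvrb* was at 412 and 546 CPM, a log2 fold of -0.41 (-0.52 to -0.29), and at 413 and 628 CPM in haemato-endothelial clusters (-0.60, -0.73 to -0.48).

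From 3% to 10% there were 318 tdTom+ and 714 host cells, a range added after seeing the data, and 3 members were at least 2-fold lower, beside 3.95% of 7390 genes. *Bpgm* was at 19.4 CPM (16.3 to 23) in tdTom+ and 105 CPM (100 to 111) in host cells, a log2 fold of -2.44 (-2.70 to -2.18). *Prdx2* was at 1406 and 4006 CPM (-1.51, -1.54 to -1.48), and *Blvrb* at 604 and 1309 CPM (-1.12, -1.16 to -1.07). *Gpx1* lay at the limit, with 986 and 1955 CPM and a log2 fold of -0.99 (-1.03 to -0.95). *Car2* was the 1 member at least 2-fold higher, at 2403 against 1066 CPM, beside 4.01% of genes, while *Cat* (30.4 and 25.6 CPM) and *Sod1* (130 and 112 CPM) stayed within a log2 fold of 0.25 and 0.22. No tdTom+ cell had over 10% globin, where 635 host cells were found.

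In finer ranges among cells of the blood clusters, also added after seeing the data, host cells showed higher *Bpgm* at higher globin, from 51.9 CPM at 1% to 2% through 72.9 CPM at 3% to 5% to 214 CPM at 15% to 30%. The tdTom+ cells showed no such order for *Bpgm*, with 26.4 CPM below 0.25% globin, 27.5 CPM at 1% to 2% and 18.9 CPM at 5% to 10%. *Gpx1* had the same split, with 919 CPM at 1% to 2% and 2665 CPM at 15% to 30% in host cells, while the tdTom+ values stayed between 938 and 1272 CPM in all 7 ranges. *Prdx2* went from 2519 to 4530 CPM over these host ranges, and from 875 CPM below 0.25% to 1488 CPM at 5% to 10% globin in tdTom+ cells. *Blvrb* and *Car2* were higher at higher globin in both fractions, *Blvrb* from 65.6 to 664 CPM and *Car2* from 642 to 2736 CPM in tdTom+ cells. At 3% to 5%, which holds 253 of the tdTom+ cells and 126 host cells, the log2 fold of tdTom+ over host was -1.90 (-2.26 to -1.54) for *Bpgm*, -1.33 (-1.38 to -1.28) for *Prdx2*, -0.81 (-0.89 to -0.74) for *Blvrb*, -0.72 (-0.78 to -0.66) for *Gpx1* and 1.32 (1.26 to 1.39) for *Car2*, so that *Blvrb* was not past 2-fold there. At 5% to 10%, with 65 tdTom+ and 579 host cells, the log2 fold of tdTom+ over host was -2.58 (-3.19 to -2.04) for *Bpgm*, -1.48 (-1.54 to -1.41) for *Prdx2*, -1.06 (-1.15 to -0.96) for *Blvrb*, -0.96 (-1.04 to -0.89) for *Gpx1* and 1.31 (1.26 to 1.36) for *Car2*. Below 0.25%, with 365 tdTom+ and 54 host cells, *Gpx1* was at 1104 and 772 CPM (0.52, 0.41 to 0.63) and *Blvrb* at 65.6 and 40.6 CPM (0.69, 0.23 to 1.19). There the log2 fold was 1.01 (0.84 to 1.18) for *Car2*, -0.28 (-0.38 to -0.19) for *Prdx2* and -0.16 (-0.72 to 0.46) for *Bpgm*. Host cells were few at low globin, with 28 at 1% to 2% and 26 at 2% to 3%. The mix of clusters also changed with globin. In the unnamed blood cluster led by *Fcer1g*, *Spi1* and *Rac2*, 97 of 466 tdTom+ and 14 of 88 host cells were globin-expressing. In the blood progenitor-like cluster 839 of 1143 tdTom+ cells were. *Gpx1* differed between these clusters, as given below, and the order by globin within a single cluster was not tested.

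**Figure D3:**
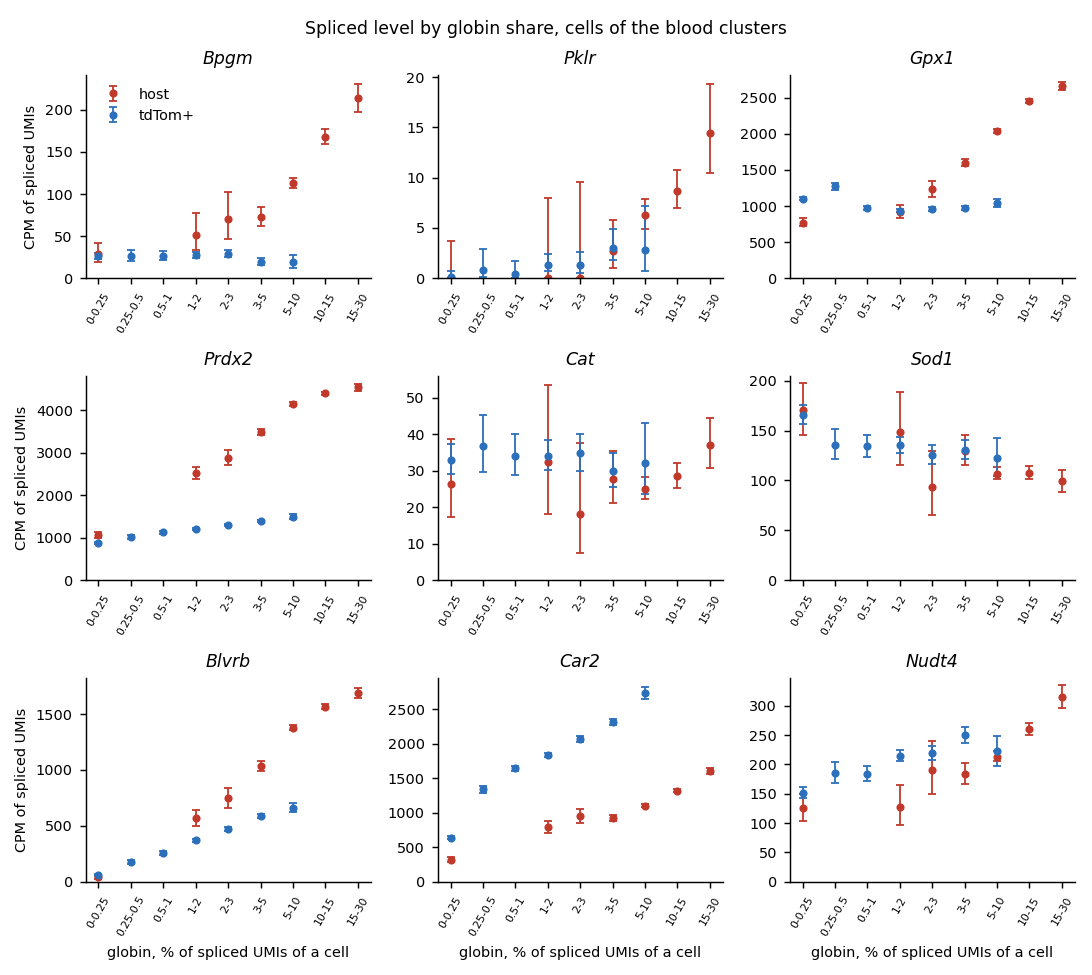
Spliced level (CPM, linear axes from 0, exact Poisson 95% intervals) against the globin share of a cell in ranges of unequal width, for cells of the blood clusters, host and tdTom+; ranges with fewer than 20 cells of a fraction are left out. *Bpgm* reaches 214 CPM in host cells at 15% to 30% globin and stays at 29.2 CPM or less in tdTom+ cells.

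Unspliced UMIs, the molecules with intron sequence, give a view of the same genes before splicing is complete. Over all genes they made up 9.87% of UMIs in host globin-expressing and 14.2% in other host cells, and 11.1% and 13.4% in tdTom+ cells. The unspliced share was higher in globin-expressing than in other host cells, with intervals apart, for 2 members, beside 13.7% of 13916 genes, and lower for 4 members, beside 8.49%. Whether intervals lie apart depends on counts. The background takes genes from 100 UMIs up, while *Prdx2* had 114584 and 148932 spliced UMIs in these groups. Members and background are thus not like for like, here and in the tdTom+ fraction. The higher ones were *Cat*, with 14.1% (11.9% to 16.6%) against 7.53% (6.74% to 8.38%), and *Sod1*, with 8.29% (7.37% to 9.28%) against 6.36% (5.97% to 6.78%). Their unspliced level was higher in host globin-expressing cells, by log2 folds of 0.78 (0.47 to 1.08) and 0.31 (0.11 to 0.51), beside -0.24 and -0.10 for the spliced level, whose sign turned with folds centered on the median gene (0.46 and 0.60).

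The 4 members with a lower share were *Nudt4*, *Car2*, *Blvrb* and *Prdx2*. *Nudt4* had 4.12% (3.66% to 4.62%) unspliced UMIs in host globin-expressing and 8.19% (7.72% to 8.67%) in other host cells. Its unspliced level, relative to spliced UMIs as above, had a log2 fold of 0.10 (-0.10 to 0.29) where the spliced one had 1.15. *Car2* had 2.1% (1.95% to 2.26%) and 4.86% (4.38% to 5.37%), *Blvrb* 2.15% (2.01% to 2.29%) and 3.75% (3.07% to 4.52%), and *Prdx2* 0.213% (0.188% to 0.242%) and 0.388% (0.357% to 0.421%). The same 4 genes had a lower share in tdTom+ globin-expressing than in other tdTom+ cells, beside 6.08% of 13860 genes, and 0 members had a higher one, beside 11.5%. *Pklr* had the highest unspliced share of the members, at 25.5% (20.5% to 31.1%) in host globin-expressing cells on 71 unspliced UMIs. Its share was 24.3% (11.8% to 41.2%) in other host and 29.8% (18.4% to 43.4%) in tdTom+ globin-expressing cells, with overlapping intervals. As with CPM, shares compare groups and not genes. Between globin-expressing cells the unspliced levels kept the direction of the spliced ones for the 5 lower members, with log2 folds of tdTom+ over host of -1.95 for *Bpgm*, -1.64 for *Pklr*, -1.03 for *Gpx1*, -1.76 for *Prdx2* and -1.08 for *Blvrb*. For *Pklr* this rests on 17 and for *Bpgm* on 25 unspliced UMIs in tdTom+ cells. *Cat* went the other way, at -0.48 (-0.92 to -0.05) unspliced and 0.22 (0.07 to 0.37) spliced, and *Nudt4* was at -0.58 (-0.88 to -0.28) unspliced beside -0.06 spliced.

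**Figure D4:**
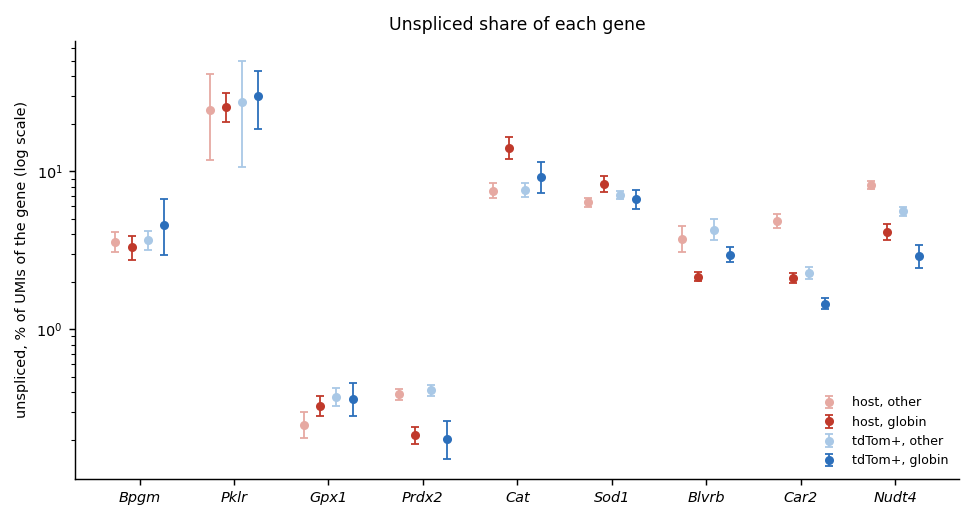
Unspliced UMIs as a percent of all UMIs of each gene, on a log scale, in other and globin-expressing cells of host and tdTom+, with exact Clopper-Pearson 95% intervals. *Nudt4*, *Car2*, *Blvrb* and *Prdx2* lie lower in globin-expressing than in other cells of both fractions, and *Cat* and *Sod1* lie higher in the host.

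Levels were also read over 59 groups of 50 or more cells, each a cluster in 1 fraction, of which 8 belonged to the haemato-endothelial clusters. The erythroid-like host cells had the highest level of all 59 groups for *Bpgm* (140 CPM), *Gpx1* (2196 CPM), *Prdx2* (4182 CPM), *Blvrb* (1432 CPM) and *Nudt4* (238 CPM). Outside the haemato-endothelial clusters *Blvrb* stayed between 8.52 and 65.4 CPM and *Gpx1* between 283 and 592 CPM, while *Bpgm* reached 109 CPM in gut endoderm-like tdTom+ cells. *Nudt4* reached 211 CPM in extraembryonic mesenchyme-like tdTom+ cells, close to its level in erythroid-like host cells. *Pklr* was at its highest not in blood but in visceral endoderm-like host cells, with 10.2 CPM (5.56 to 17.1) on 14 UMIs, beside 7.6 CPM (6.59 to 8.71) in erythroid-like host cells, which did not differ beyond counting error. These 62 visceral endoderm-like cells, led by *Apoa1*, *Rbp4* and *Ttr*, also had the highest level of *Cat* (55.2 CPM). *Sod1* was highest in endothelial-like tdTom+ cells (179 CPM) and lowest of the haemato-endothelial groups in erythroid-like host cells (109 CPM). *Car2* was highest in blood progenitor-like tdTom+ cells (2001 CPM), then in erythroid-like host cells (1218 CPM), and outside blood reached 290 CPM in an unnamed tdTom+ cluster led by *Epcam*, *Galnt3* and *Pax8*. In the unnamed cluster led by *Fcer1g*, *Spi1* and *Rac2*, *Gpx1* reached 1478 CPM among tdTom+ cells, more than the 834 CPM of the blood progenitor-like tdTom+ cells, and 776 CPM among host cells.

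Over the same 59 groups, the genes most like each member by Pearson's r of log2(CPM + 10) are given as a description, since groups share their library. *Blvrb* had the closest ones, *Hbb-bh1* (r = 0.949) and *Hba-a2* (r = 0.942), followed by *Gpx1* with *Ifi35* (0.892) and *Art4* (0.867), *Car2* with *Frrs1* (0.852) and *Wapl* (0.769), and *Pklr* with *Dhrs11* (0.845) and *Acp5* (0.833). *Prdx2* was most like *Tnrc6b* (0.800) and *1300002E11Rik* (0.695), *Bpgm* like *Lcmt1* (0.765) and *Ankrd9* (0.735), and *Nudt4* like *Cyth3* (0.734) and *Mob1a* (0.722). *Cat*, with *Atraid* (0.727) and *Fam69a* (0.726), and *Sod1*, with *Rcor1* (0.677) and *Adam10* (0.652), were likewise paired with genes that are not globins. Among the members themselves r was 0.84 for *Gpx1* and *Blvrb* and 0.70 for *Bpgm* and *Prdx2*, but -0.01 for *Bpgm* and *Gpx1*.

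**Figure D5:**
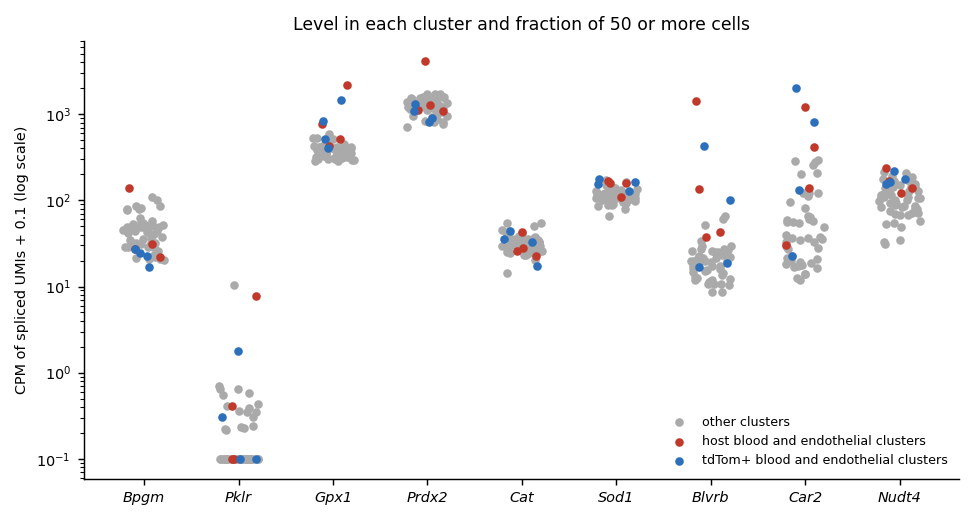
Spliced level (CPM + 0.1, log scale) of each gene in each cluster and fraction of 50 or more cells; points are groups, red host and blue tdTom+ for the 8 groups of the haemato-endothelial clusters and grey for the 51 others. *Blvrb* is at 1432 CPM in erythroid-like host cells and at 65.4 CPM or less in the grey groups, whereas *Cat* in the haemato-endothelial groups stays within the range of the grey ones and *Sod1* passes it only in endothelial-like tdTom+ cells (179 against 171 CPM).

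Of 9 related enzymes, 2 were at least 2-fold higher in host globin-expressing than in other host cells and 4 were lower, beside 4.22% and 41.8% of all genes, whose median was -0.70. *Pkm*, the pyruvate kinase of most tissues, was at 1551 CPM in host globin-expressing and 3378 CPM in other host cells (log2 fold -1.12), and *Pgam1*, a phosphoglycerate mutase, at 5.61 and 16.5 CPM (-1.55). *Prdx1*, another cytosolic peroxiredoxin, was at 927 and 1447 CPM, and *Gpx4*, which reduces lipid peroxides, at 378 and 329 CPM. *Car4*, a membrane-bound carbonic anhydrase, was at 8.06 and 195 CPM (-4.60), and *Nudt3* at 35.7 and 45.2 CPM. *Sod2*, the mitochondrial superoxide dismutase, and *Blvra*, the main biliverdin reductase, were higher in globin-expressing cells, at 288 against 116 CPM (1.32) and 22.8 against 6.48 CPM (1.82). *Hmox1*, which opens the heme ring, was at 4.61 and 29.4 CPM in the host and at 21.1 and 27.6 CPM in tdTom+ cells, and was higher in tdTom+ than in host globin-expressing cells by a log2 fold of 2.20 (1.91 to 2.49). At like globin it did not differ beyond counting error from 1% to 3%, with 24.4 and 22.6 CPM (0.11, -0.44 to 0.71), and was higher in tdTom+ cells from 3% to 10%, with 14.6 and 5.03 CPM (1.54, 1.08 to 2.00).

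Across 7 lists of related enzymes with 94 genes, 88 had 100 or more UMIs in the host comparison, of which 10 were at least 2-fold higher, beside 4.22% of all genes, and 33 at least 2-fold lower, beside 41.8%. Of 18 glycolysis genes 1 was higher and 8 were lower, with a median of -0.90 beside -0.70 over all genes. *Hk1*, which starts glycolysis, was the higher one, at 46.9 against 9.48 CPM, while *Ldha* had the highest level of the list, at 2785 and 3667 CPM. Of 9 genes of the pentose phosphate route and NADPH supply 1 was higher and 2 were lower (median -0.29); *Rpia* was at 70.3 against 8.89 CPM and *Tkt*, the most abundant, at 488 and 554 CPM.

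Of 19 glutathione genes 3 were higher and 7 lower (median -0.22). The higher ones were *Mgst3* (514 against 24.2 CPM), *Glrx5* (1540 against 335 CPM), a glutaredoxin of iron-sulfur cluster assembly, and *Gclm* (339 against 64.9 CPM), a subunit of the enzyme that starts glutathione synthesis. Of 11 peroxiredoxin and thioredoxin genes 1 was higher and 2 were lower (median 0.07), with *Prdx3* at 286 against 65.1 CPM and *Prdx6*, the most abundant, at 1335 against 702 CPM. Of 5 genes of superoxide and heme breakdown 2 were higher and 1 was lower (median -0.13), these being *Sod2*, *Blvra* and *Hmox1*. Of 10 carbonic anhydrases 1 was higher and 9 were lower (median -2.59), and *Car1*, the red cell form beside *Car2*, was at 23.4 against 0.166 CPM. Of 16 Nudix genes 1, *Nudt13*, was higher and 4 were lower (median -0.35), with *Nudt21* the most abundant at 139 and 162 CPM.

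In the tdTom+ fraction 10 of 89 list genes were at least 2-fold higher in globin-expressing cells and 25 were lower, beside 4.45% and 33.3% of all genes. The medians were -0.41 for glycolysis, 0.12 for the pentose phosphate route, -0.12 for glutathione, 0.17 for peroxiredoxins, 0.13 for superoxide and heme breakdown, -2.76 for carbonic anhydrases and -0.01 for the Nudix genes. The list genes that passed in the higher direction were the same in both fractions (*Hk1*, *Rpia*, *Gclm*, *Glrx5*, *Mgst3*, *Prdx3*, *Sod2*, *Blvra*, *Car1* and *Nudt13*). Between globin-expressing cells 4 of 75 list genes were at least 2-fold lower in tdTom+ than in host cells, beside 3.93% of all genes, and 6 were higher, beside 6.62%. *Mgst3* had 102 CPM in the tdTom+ and 514 CPM in the host group (-2.34) and *Car1* 5.89 and 23.4 CPM (-1.99), and the other 2 were *Gpx3* (-1.48) and *Car4* (-1.08). The 6 higher ones were *Gpx8* (2.43), *Hmox1* (2.20), *Car3* (1.92), *Car13* (1.59), *Glrx* (1.32) and *Me1* (1.26), all but *Hmox1* at under 10 CPM in both groups. At like globin, 7 of 65 list genes were lower from 1% to 3% and 0 higher, beside 5.75% and 3.47% of all genes, and in haemato-endothelial clusters 2 of 60 were lower (*Pfkp* and *Gsta4*) and 1 higher (*Idh1*), beside 3.55% and 4.85%. *Idh1* rested there on 118 tdTom+ and 4 host UMIs, with a log2 fold of 1.03 (-0.37 to 2.93). From 3% to 10%, 5 of 63 were lower (*Pfkp*, *Mgst3*, *Car1*, *Car4* and *Nudt9*) and 2 higher (*Gss* and *Hmox1*), beside 3.95% and 4.01%. *Car4* went from -1.72 there to -0.01 (-0.95 to 0.88) in haemato-endothelial clusters, and from -3.77 to -0.75 (-2.08 to 0.94) at 1% to 3%. *Mgst3* had 79.4 CPM in tdTom+ and 77.2 CPM in host cells from 1% to 3% (0.04, -0.26 to 0.35), and 146 and 379 CPM from 3% to 10% (-1.38, -1.48 to -1.28). *Car1* had 4.45 and 13.3 CPM (-1.58, -2.37 to -0.71) and 8.71 and 30.2 CPM (-1.79, -2.20 to -1.40). These list counts and values by range were added after seeing the data.

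Among other cells 1 member was at least 2-fold higher in tdTom+ than in host cells (*Car2*), beside 1.52% of 13525 genes, and 0 were lower among the 8 with 100 UMIs, beside 1.97%. The excess of *Car2* was not seen outside the haemato-endothelial clusters (log2 fold 0.08). *Pklr*, on 16 and 28 UMIs, had -1.03, beside 6.35% lower among genes with 1 UMI or more. The other 7 members had log2 folds between -0.20 (*Bpgm*) and 0.26 (*Nudt4*). *Blvrb* was among them with 0.21, but had 13.5 CPM in tdTom+ and 22.4 CPM in host cells outside the haemato-endothelial clusters, a log2 fold of -0.73 (-0.82 to -0.64). The 8 globin genes were each lower in these tdTom+ cells too, with log2 folds from -1.26 (*Hba-a1*) to -4.37 (*Hbb-bs*). *Hba-x* fell from 445 CPM in the host to 53.3 CPM in the tdTom+ fraction (-3.06). Whether free RNA of host red cells makes up this *Blvrb* difference was not tested. The share of mitochondrial UMIs had a median of 3.09% in host and 2.88% in tdTom+ globin-expressing cells, and 18 cell barcodes occurred in both libraries.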

How the data were processed

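The authors mapped reads to mm10 (GRCm38) in Cell Ranger 3.0.2, per the labels, and called and filtered cells. The tables hold more cells than the study kept for its annotated data, and all of them entered the doublet step. velocyto then split molecules into spliced and unspliced ones. The counts the authors deposited are these UMIs, not normalized. All values were whole numbers. The tables held 8981 tdTom+ and 9252 tdTom- cells with 167940767 and 157174026 spliced UMIs (medians of 17598 and 15996 per cell). The deposited metrics give the percent of mitochondrial UMIs and hold 6 cells that the tables do not. Cell types of the authors were not used here. The summed level of the erythroid markers is not reported here.

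The analysis ran on scanpy 1.11.5, leidenalg 0.10.2, scipy 1.17.1 and pandas 2.3.3 under Python 3.11.15. Scrublet called 395 tdTom+ (4.4%) and 530 tdTom- (5.73%) doublets, which were left out with 1 cluster of mostly called cells. Clustering used 2465 variable genes, 50 components, 20 neighbors and a Leiden resolution of 1.5, without 117 genes (the members, globins, related enzymes and sex-linked genes). A cluster name needed at least 3 raised markers. The 5 haemato-endothelial clusters are those whose leading class was blood or endothelium.

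For each group, CPM is the sum of a gene's spliced UMIs relative to 1000000 spliced UMIs in total. Levels have exact Poisson intervals, folds exact conditional ones and shares exact Clopper-Pearson ones, at 95%. A gene counted as called past 2-fold, and genes with 100 or more UMIs over both groups gave the background. Simulated counts with known folds were used to check the interval code. CPM from this assay compares groups, not genes, as UMIs come from the 3′ end.

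The members and lists were chosen with earlier results of these data known. Named genes are the 9 members, a related enzyme of each, the most abundant gene of each list in host globin-expressing cells, and the 2 genes most like each member; list genes past 2-fold were named after their values were seen. 14 alternatives were tried, among them other globin limits, scalings, thinning to 5000 UMIs and the subtraction of the level in neural-like cells.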

Additional observations from a re-analysis of the deposited data

Results flagged for a closer look

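For 3 members the log2 fold of globin-expressing over other cells had opposite signs in the fractions. With 1 library per fraction these differences were not tested. *Bpgm* had 1.55 in the host and -0.68 in tdTom+ cells. Every alternative that gave a value kept both directions, from 1.45 to 2.26 in the host and from -0.80 to -0.28 in tdTom+ cells. The other tdTom+ cells were mostly not blood, with 673 of 7620 in blood clusters. Within these clusters tdTom+ *Bpgm* was at 26.8 CPM (22.1 to 32.2) at 0.5% to 1% globin and 27.5 CPM (24 to 31.3) at 1% to 2%. It was at 26.4 CPM (22.9 to 30.3) below 0.25% and 18.9 CPM (12.4 to 27.4) at 5% to 10%. *Cat* had -0.24 in the host and 0.14 in tdTom+ cells, and *Sod1* had -0.10 and 0.10, both under 2-fold. For these 2 genes the signs were alike with folds centered on the median gene, at 0.46 and 0.54 for *Cat* and at 0.60 and 0.50 for *Sod1*. The host fold of *Sod1* was also 0.05 without the globin genes in the total and 0.00 with unspliced UMIs added. With the level in neural-like cells subtracted as free RNA, the tdTom+ fold was 2.90 for *Cat* and 0.78 for *Sod1*, and the host fold had no value. That level takes in any expression of the neural-like cells. *Cat* was at 29.3 CPM (26.8 to 32.1) in neural-like tdTom+ cells, beside 32.8 CPM in tdTom+ globin-expressing and 29.8 CPM in other tdTom+ cells. The level left in other tdTom+ cells was thus within counting error.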

How the results depend on the processing

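With 1 library per fraction, no replicate could be left out and counting intervals are too narrow to stand for the spread between embryos. No paired analysis was possible because each fraction has a single library and the result comes from no test. The count of 7 members at least 2-fold higher in host globin-expressing cells was 4 at 4-fold, and 5 with free RNA subtracted, when *Bpgm* and *Prdx2* among them had no value. The count of 4 in tdTom+ cells was 5 with free RNA subtracted, with *Cat* (2.90) and *Nudt4* (1.48) past 2-fold and *Pklr* without a value, and 5 with folds centered on the median gene, with *Nudt4* at 1.23. The count of 5 members lower in tdTom+ than in host globin-expressing cells was 3 with free RNA subtracted, when 4 members had no value left, and 1 at 4-fold. The count of 1 member lower at 1% to 3% globin was 0 with the 0.5% limit, with unspliced UMIs added, with free RNA subtracted, with cells weighted equally and at 4-fold, 2 with the 2% limit, in haemato-endothelial clusters and at 1.5-fold, and 3 in the range of 3% to 10%. The count of 2 members with a higher unspliced share did not change under the 4 alternatives tried for it. Of 371 member folds recomputed, 10 changed sign, all with a main fold under 2, and 31 moved by over 1.5 times, for the most part with folds centered on the median gene or free RNA subtracted. Centering shifts the host folds by 0.70 and the tdTom+ ones by 0.40. What was subtracted as free RNA was the whole level in neural-like cells, which takes in any expression of these cells. *Prdx2* was at 1463 CPM in host neural-like cells, beside 1304 CPM in other host cells. The median globin share was 0.0844% in host neural-like and 9.31% in host globin-expressing cells. Expression and free RNA were not told apart in the neural-like cells, so values with this subtraction do not stand for free RNA alone. Among genes with 1 UMI or more, the share past 2-fold was 6.03% higher in the host and 6.16% in tdTom+ cells, and 7.3% lower in tdTom+ than host globin-expressing cells, or 24.7% at 1% to 3% globin.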
